A study of Mus musculus with 4 samples.

Results

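The nuclei described here are GABAergic nuclei of the 2 brain libraries labelled striatum that carried few transcripts of striatal projection neurons. They were chosen by their counts of unique molecular identifiers (UMIs, 1 per captured RNA molecule). A nucleus needed at least 3 UMIs of Gad1 plus Gad2, at least 1 UMI of Slc32a1 and 0 UMIs of Slc17a6 plus Slc17a7. Sums of Rgs9, Ppp1r1b and Drd1, of Sox11 and Igfbpl1, and of Mog, Mag, Aqp4, Csf1r and Cldn5 could each reach 1 at most. After called doublets were left out, 770 nuclei of the library labelled AAV-CTRL and 685 of the library labelled AAV-VEGF-C met the rule. These 1455 nuclei were part of 38664 kept nuclei in the 2 libraries and of 74218 kept nuclei in the series.

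Single-nucleus RNA sequencing was performed on brains of male mice aged 8 weeks, of the C57BL/6J strain that the methods name for the study. Each mouse had been given a viral vector of the adeno-associated type (AAV) through the cisterna magna. AAV-VEGF-C encoded mouse vascular endothelial growth factor C in its full length. AAV-CTRL encoded soluble extracellular domains of VEGF receptor 3 that cannot bind VEGF-C, so mice of the control group also made a secreted viral product. Brains of 5 mice per virus were pooled, and the study states that areas of cortex and striatum were dissected. Every group was 1 library, no genetic alteration was given for either group, and differences below have no replicate check. They describe pairs of libraries rather than the virus, since preparation, dissection and virus cannot be told apart.

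GABAergic neurons release the inhibitory transmitter γ-aminobutyric acid. Gad1 and Gad2 encode the glutamate decarboxylases that make it, and Slc32a1 encodes the transporter that loads it into synaptic vesicles. Below the cortex such neurons lie in the basal forebrain, septum, hypothalamus, thalamic reticular nucleus and midbrain, and they are told apart by developmental transcription factors, peptides and receptors. Telencephalic GABAergic neurons arise from progenitors that use Dlx and Lhx genes, whereas diencephalic and midbrain GABAergic neurons use factors such as Gata3, Tal1 and Otx2.

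The libraries were comparable in total UMIs, while the median per kept nucleus ran from 2168 to 2682 UMIs. The 4 libraries held 17168 to 23724 deposited nuclei and 63165470 to 78332657 UMIs, with 4.08% to 7.64% of nuclei called as doublets. Pairs of libraries shared 76 to 118 cell barcodes. The summed level of 7 striatal projection neuron genes over all kept nuclei was 147 and 148 CPM (UMIs of a gene per 1000000 UMIs of the summed nuclei) in the libraries labelled striatum, against 387 and 477 in those labelled cortex. The level of these genes was therefore opposite to the region label. The 5 excitatory neuron markers ran with the label, at 723 and 752 CPM in the cortex-labelled and 231 and 231 in the striatum-labelled libraries. Both regions are named here only by their labels. Vegfc, the delivered gene, gave 22 UMIs in the GABAergic nuclei of each striatum-labelled library, a level of 5.54 CPM (95% Poisson interval 3.47 to 8.39) with AAV-CTRL and 5.44 (3.41 to 8.23) with AAV-VEGF-C. The counted reads cannot tell the viral transcript from that of the mouse gene.

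The gate genes and their neighbours in the gate describe how the nuclei were picked and are no finding. Values are given for AAV-CTRL first and AAV-VEGF-C second. Gad2 (ENSMUSG00000026787, GRCm38 chromosome 2, 22622205 to 22693874, plus strand) stood at 579 and 584. Gad1 (ENSMUSG00000070880, chromosome 2, 70553072 to 70602014, plus strand) stood at 384 and 316. Slc32a1 (ENSMUSG00000037771, chromosome 2, 158610767 to 158615748, plus strand) stood at 390 and 401. All 3 defining markers were thus present in both libraries. The gate sum of Gad1 and Gad2 had a median of 4 UMIs per nucleus with AAV-CTRL and 5 with AAV-VEGF-C. Many nuclei sat at the edge of the gate, with 272 and 196 nuclei at a sum of exactly 3. Another 389 and 271 nuclei at a sum of 2 met every other condition and stayed out, and their Slc32a1 level of 433 and 432 was close to the 396 and 395 of the nuclei at 3.

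The rule needs a minimum of UMIs, which favours depth, and the nuclei were deeper than their libraries. Their median was 4765 UMIs with AAV-CTRL and 5751 with AAV-VEGF-C, against 2168 and 2576 over all kept nuclei. They made up 3.51% of kept nuclei (95% Clopper-Pearson interval 3.27 to 3.77) with AAV-CTRL and 4.09% (3.79 to 4.40) with AAV-VEGF-C. The log2 ratio of the shares was 0.22 (0.07 to 0.37), but it was −0.03 (−0.18 to 0.13) among nuclei with at least 2000 UMIs. It was also −0.02 (−0.25 to 0.21) when all excluded marker sums had to be 0, so no direction could be read from the share. In the cortex-labelled libraries the same gate kept 131 nuclei (0.799%) and 188 nuclei (0.982%). Its conditions on Slc17a6 plus Slc17a7 and on Rgs9, Ppp1r1b and Drd1 took out a larger part of the nuclei there. All intervals cover counting error only and not the spread between mice or preparations.

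Free RNA gives UMIs in nuclei that do not express a gene, so each level was set beside that of oligodendrocyte nuclei from the same library. These were 2182 and 2122 nuclei with at least 2 UMIs of Mog plus Mag and none of Gad1 or Gad2. Their median depths were 1775.5 and 2098.5 UMIs, against 4765 and 5751 in the GABAergic nuclei. The same number of free UMIs per nucleus would therefore give a higher CPM in oligodendrocyte nuclei. A level below theirs does not show that a gene was not expressed. Slc32a1 was found in 14.8% and 15.0% of oligodendrocyte nuclei, at 74.1 and 62.8 CPM. Markers of other cell types were present in the GABAergic nuclei too. The 5 oligodendrocyte markers summed to 716 and 768 CPM. The 5 astrocyte markers summed to 207 and 130, the 5 microglia markers to 96.4 and 115, and the 5 endothelial markers to 32.2 and 31.9. Neuroblast markers summed to 173 and 139. Of the 5 excitatory markers, Slc17a6 and Slc17a7 were at 0 by the gate and the other 3 summed to 10.8 and 10.9. No list had another marker at 0, and their part in the results was not tested.

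Transcription factors of the telencephalic list ranged widely in level. Zfhx3 (GRCm38 chromosome 8, 107942644 to 108961630, plus strand), a homeodomain and zinc finger factor, had the highest level of the telencephalic factor list, at 815 (787 to 843) and 850 (822 to 879) CPM. It was also high in Slc17a6 nuclei of the same libraries (978 and 969) and lower in oligodendrocyte nuclei (307 and 358), so its high level was shared with the Slc17a6 nuclei. Meis2, a homeodomain factor of striatal and olfactory progenitors, stood at 536 (514 to 559) with AAV-CTRL and 342 (325 to 361) with AAV-VEGF-C. Its partner Pbx3 stood at 306 and 216.

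The factor lists of the diencephalon and of the midbrain and hindbrain stood differently against oligodendrocyte nuclei. The 23 diencephalic factors summed to 235 and 266 CPM, below the 485 and 534 of oligodendrocyte nuclei. The 26 midbrain and hindbrain factors summed to 563 and 497, above the 190 and 162 of oligodendrocyte nuclei, and most of this sum was Zfpm2. Zfpm2, a cofactor of GATA factors, stood at 435 and 373 CPM against 116 and 95.3 in oligodendrocyte nuclei and 117 and 92.5 in Slc17a6 nuclei. Gata3, a GATA factor of midbrain and hindbrain GABAergic neurons, stood at 29.5 (24.4 to 35.3) and 24.7 (20.1 to 30.0) against 5.94 and 5.30 in oligodendrocyte nuclei. Tal1, which acts with GATA factors, stood at 11.3 and 14.3 against 4.51 and 4.42. Lhx1 stood at 25.4 and 31.1 and Otx2 at 22.9 and 20.3, each more than 2 times its oligodendrocyte level in both libraries. Tcf7l2, a Wnt effector known from thalamic neurons and from maturing oligodendrocytes, went the other way and held much of the diencephalic sum. It stood at 100.5 and 113 in the GABAergic nuclei, 304 and 354 in oligodendrocyte nuclei and 521 and 537 in Slc17a6 nuclei.

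**Figure D1:**
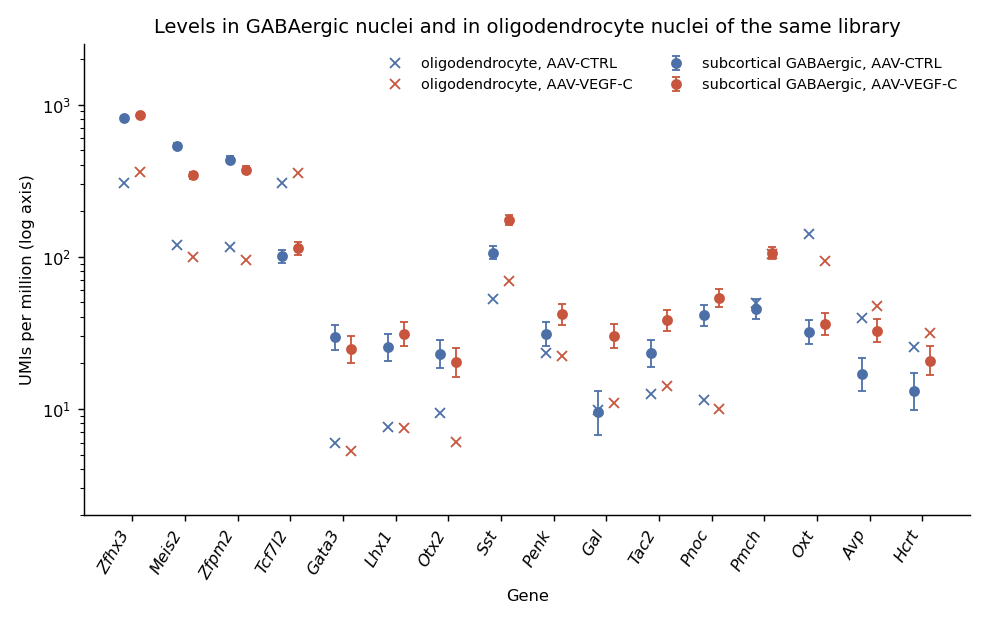
Levels of 16 genes in CPM on a log axis, for the subcortical GABAergic nuclei (circles with 95% Poisson intervals) and the oligodendrocyte nuclei (crosses) of the libraries labelled striatum, by AAV label. Gata3, Lhx1, Otx2, Zfpm2 and Pnoc sit above their crosses in both libraries, whereas Oxt, Avp, Hcrt and Tcf7l2 sit below them, and Gal sits near its cross with AAV-CTRL and above it with AAV-VEGF-C.

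Neuropeptides split into those above and those below the level of oligodendrocyte nuclei. Pnoc, the prepronociceptin gene, stood at 41.3 and 53.4 CPM against 11.5 and 9.90 in oligodendrocyte nuclei. Sst (somatostatin) stood at 106 and 173 against 52.6 and 69.7, and Tac2 (neurokinin B) at 23.2 and 38.0 against 12.5 and 14.1. Peptides of other hypothalamic neuron types lay below it. Oxt (oxytocin) stood at 31.98 and 36.1 against 142 and 93.2, Avp (vasopressin) at 16.9 and 32.6 against 39.7 and 47.0, and Hcrt (orexin) at 13.1 and 20.8 against 25.6 and 31.6. Their summed levels are therefore not read as expression of the nuclei as a group. Single nuclei held more: the highest count in 1 nucleus was 17 and 26 for Oxt, 3 and 25 for Avp and 6 and 12 for Hcrt, and 0 to 3 nuclei per library held at least 5 UMIs of one of these genes.

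Among receptors, Htr2c, the serotonin 2C receptor, was the highest of the neuromodulator receptor list at 566 (543 to 590) and 568 (545 to 592) CPM, against 162 and 154 in oligodendrocyte nuclei. Chrm3 and Chrm2, muscarinic acetylcholine receptors, stood at 424 and 372 and at 294 and 240. Gabrg3, the γ3 subunit gene of GABA-A receptors, stood at 931 and 915. Nrp1 and Nrp2, neuropilins that serve as coreceptors for VEGF and semaphorins, stood at 115 and 106 and at 107 and 125. Flt4 and Kdr, the VEGF receptors 3 and 2, were found at no more than 2.27 CPM in either library. Bdnf stood at 18.6 and 13.8, below the 20.3 of oligodendrocyte nuclei in both libraries, while its receptor gene Ntrk2 stood at 618 and 586 against 268 and 308.

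Clustering of the nuclei without the gate genes gave 15 sub-clusters (12 at a lower resolution). They are called by number and leading genes, which is a description, because those genes made the clusters. Sub-cluster 1, with 119 and 86 nuclei, had Gpc5, a glypican gene, among its leading genes. Sub-cluster 2, with 94 and 98 nuclei, was led by Esr1, Cadps2 and Prlr, which include receptors for estrogen and prolactin. Its Tac2 level was 107 CPM, the highest of all sub-clusters, and its Nts (neurotensin) level was 56.9. Sub-cluster 3, with 68 and 119 nuclei, was led by Dlk1, Ecel1, Fxyd6 and Baiap3. Dlk1 is an imprinted membrane protein gene and Ecel1 encodes a neuronal endopeptidase. Its Vgf and Pnoc levels were 356 and 84.1.

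Sub-cluster 4 carried the midbrain and diencephalic factors. Its 95 and 84 nuclei were led by Tfap2b, Lef1, Otx2os1, Otx2 and Ntng1, and Lef1 is a Wnt effector of thalamic neurons. Gata3 reached 61.2 CPM there, Tal1 40.4, Pax7 49.0, Lhx1 56.3 and Foxp2 was among the leading genes. Sub-cluster 13, with 16 and 15 nuclei, had more Otx2, at 248 CPM, beside Sox14 at 49.6 and Zfpm2 at 1719. It was led by Gabrr2, Chrna6, Chrnb3, Hs3st3b1 and Cdhr1, a GABA receptor ρ subunit, 2 nicotinic acetylcholine receptor subunits, a sulfotransferase and a cadherin-related gene. Sub-cluster 5, with 83 and 72 nuclei, was led by Gm26633, Gm26673, Glra1, Syt2 and Aff1, where Glra1 encodes a glycine receptor subunit and Syt2 a calcium sensor of fast release. Gata3 stood at 53.2 CPM in it.

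Sub-cluster 8 combined Pvalb and Sst with a distinct set of factors. Its 42 and 43 nuclei were led by Gm12828, A930002C04Rik and Hs3st4, and then Fign, and Hs3st4, a heparan sulfate sulfotransferase, reached 4259.9 and 3517 CPM against 303 and 312 in all other sub-clusters. Pvalb (parvalbumin) stood at 288, Sst at 530, Six3 at 217, Nr2f2 at 292 and the metabotropic receptor gene Grm3 at 1144. Kcnmb2, a β subunit of large-conductance potassium channels, stood at 1373, and the GABA-A subunit Gabra3 at 234, the highest level of each over the sub-clusters. Sub-cluster 9, with 30 and 39 nuclei, was led by Gbx1, Gm45025, Lhx8, Grem1 and Sox6, and it also had Lhx6. Lhx6 and Lhx8 are factors of the medial ganglionic eminence, and Sox6 stood at 712 CPM in it.

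Sub-cluster 7, with 47 and 40 nuclei, was led by Ano2, Ano1, Prdm16 and Myo5b, which include 2 calcium-activated chloride channels. It had the highest Zic1, at 214 CPM, and Zic4 was also raised there. Sub-cluster 11, with 21 and 26 nuclei, held genes of striatal projection neurons, some of which the gate did not use. Penk stood at 289 CPM in it, Drd2 at 105 and Adora2a at 58.5, and the 7 striatal projection markers summed to 472. Sub-cluster 12, with 31 and 12 nuclei, was led by Egfr, Moxd1, Col19a1, Kit and Tcf4, and held Cck at 139 CPM.

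**Figure D2:**
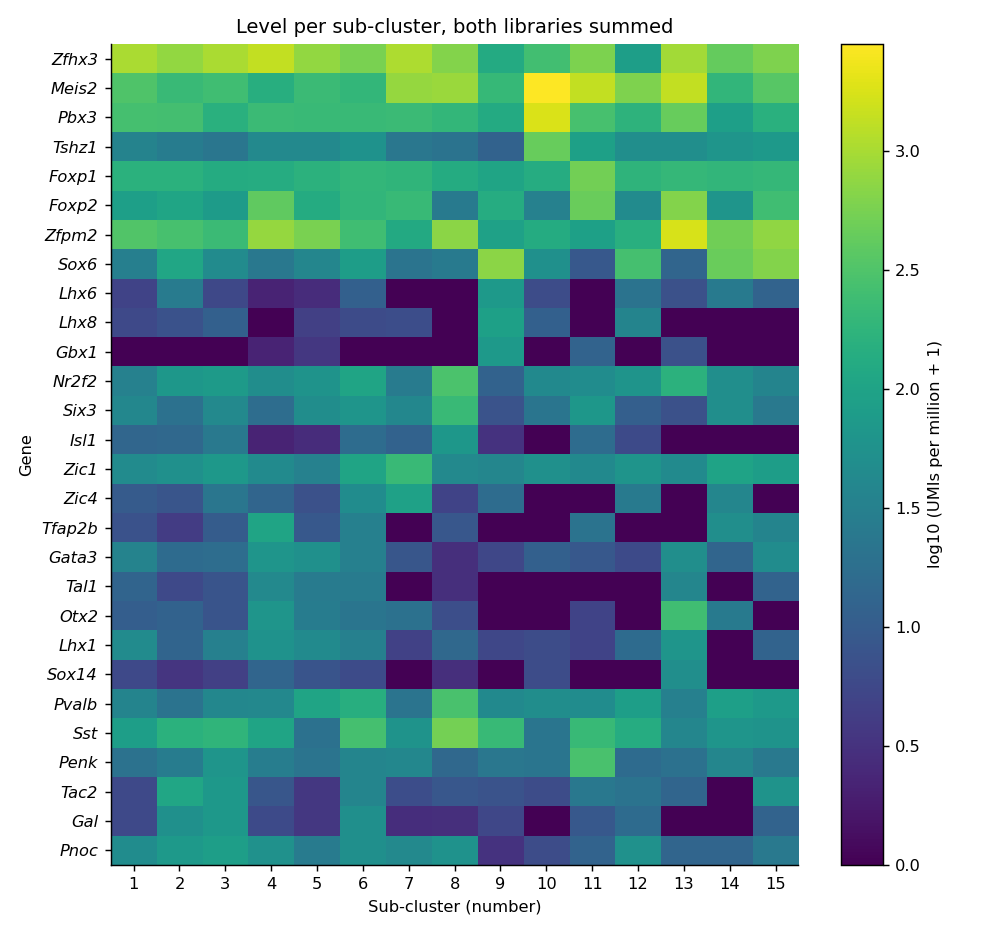
Level of 28 transcription factor, calcium-binding and peptide genes in each of the 15 sub-clusters, with UMIs of both striatum-labelled libraries summed, as log10 of CPM plus 1. Sub-cluster 10 stands out for Meis2, Pbx3 and Tshz1, 9 for Sox6, Lhx6, Lhx8 and Gbx1, 8 for Pvalb and Sst, and 4 and 13 for Otx2.

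In 3 sub-clusters the leading genes belonged to other cell types. Sub-cluster 6, with 50 and 37 nuclei, was led by Hbb-bs, Apod, Ptgds, Sparc and Slc1a3, genes of red blood cells, meningeal cells and glia. Its median depth was 1866 UMIs, and its oligodendrocyte markers summed to 2013 CPM. Sub-cluster 14, with 13 and 10 nuclei, was led by A330076C08Rik, Gli2, Slc7a10, Dbx2 and Etnppl and had an astrocyte marker sum of 2849. Sub-cluster 15, with 12 and 3 nuclei, was led by Chst3, Cspg4, Matn4, Neu4 and Susd5, several of them genes of oligodendrocyte precursors. These 3 sub-clusters are counted among the GABAergic nuclei because the rule kept them. Without them the contrast by virus below held 36 genes higher and 36 lower, and the contrast by region label held 41 higher and 46 lower.

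Sub-cluster 10 came almost wholly from the library labelled AAV-CTRL. It held 49 nuclei there, 6.36% of the GABAergic nuclei (4.74 to 8.33), and 1 nucleus in the library labelled AAV-VEGF-C, or 0.146% (0.00370 to 0.811). It was led by Gcnt1, Lgr6, Frmd7, Cpa6 and Stard8, and held Meis2 at 2813, Pbx3 at 1814 and Tshz1 at 449 CPM, factors shared by olfactory bulb interneurons and other Meis2 neurons. Its astrocyte markers summed to 698 CPM and its neuroblast markers to 301, and their part in it was not tested. A sub-cluster from 1 library may be a feature of that library, so its share is given as a value and not as a difference between viruses. How much olfactory or other tissue each dissection held cannot be told apart from the virus.

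Of the other 14 sub-clusters, the interval of the share ratio lay off 0 for 2. Sub-cluster 3 held 8.83% (6.92 to 11.1) with AAV-CTRL and 17.4% (14.6 to 20.4) with AAV-VEGF-C, a log2 ratio of 0.98 (0.53 to 1.43). Sub-cluster 12 held 4.03% (2.75 to 5.67) and 1.75% (0.908 to 3.04), a log2 ratio of −1.20 (−2.30 to −0.20). Among nuclei with at least 2000 UMIs, sub-cluster 3 held 9.05% and 17.8% and sub-cluster 12 held 3.76% and 1.82%. At the lower resolution 98.9% of sub-cluster 3 fell in the same cluster as 98.96% of sub-cluster 2. Likewise 79.1% of sub-cluster 12 fell in the same cluster as 97.1% of sub-cluster 9. Both shares therefore rest on boundaries that the lower resolution did not draw. The interval of the ratio held 0 for the remaining 12 sub-clusters. Nuclei are not replicates, and no test was run.

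**Figure D3:**
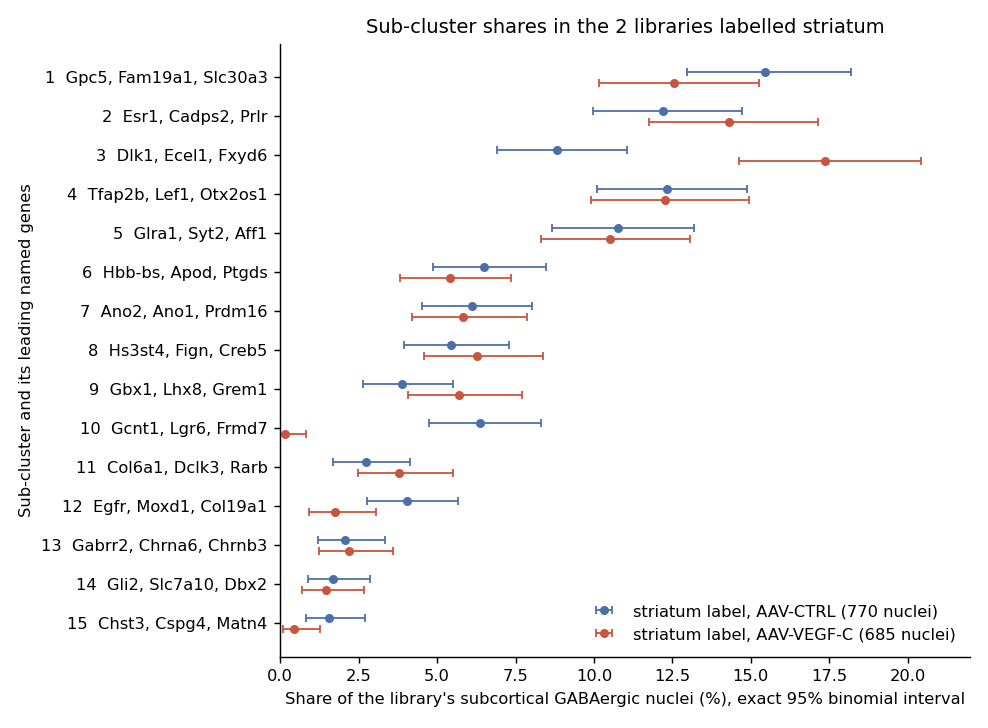
Share of each library's subcortical GABAergic nuclei in each of the 15 sub-clusters, in percent with exact 95% binomial intervals, for the libraries labelled AAV-CTRL (blue, 770 nuclei) and AAV-VEGF-C (red, 685 nuclei). The intervals of the 2 libraries do not overlap for sub-clusters 3 and 10.

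The question of which genes differed by virus was addressed by summing UMIs over all GABAergic nuclei of a library. Of 11738 genes with at least 50 UMIs over both libraries, 33 were at least 2-fold higher with AAV-VEGF-C (0.281%) and 35 at least 2-fold lower (0.298%), together 68 (0.579%), and the median log2 ratio was 0.03. Parentheses after a ratio hold its exact conditional 95% interval. Most of these genes had few UMIs: with a minimum of 200 UMIs, 3 were higher and 4 lower. The ratios were also read in oligodendrocyte nuclei of the same libraries and without sub-cluster 10.

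Gal had the highest ratio. Gal (ENSMUSG00000024907, GRCm38 chromosome 19, 3409915 to 3414544, minus strand) encodes the inhibitory neuropeptide galanin, made by hypothalamic neurons among others. It gave 38 UMIs with AAV-CTRL and 122 with AAV-VEGF-C, levels of 9.57 (6.77 to 13.1) and 30.1 (25.03 to 36.0) CPM and a log2 ratio of 1.66 (1.12 to 2.22). In oligodendrocyte nuclei it stood at 9.83 and 11.0, close to the AAV-CTRL level. The UMIs of AAV-VEGF-C lay mostly in sub-clusters 2 and 3, with 53 and 55 UMIs against 15 and 4 with AAV-CTRL. There were 8 nuclei with at least 5 Gal UMIs in the AAV-VEGF-C library and 0 in the AAV-CTRL library. The nucleus with the most held 21 UMIs against 3, and without the top nucleus of each library the ratio was 1.502 (0.93 to 2.10). Within sub-cluster 3, the levels were 14.2 and 93.6 CPM.

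Pmch had the next named peptide ratio, but it rested on single nuclei. Pmch (chromosome 10, 88091072 to 88092375, plus strand) encodes melanin-concentrating hormone of lateral hypothalamic neurons. It gave 180 and 429 UMIs, levels of 45.3 and 106 CPM and a log2 ratio of 1.23 (0.97 to 1.48). In the AAV-VEGF-C library 1 nucleus of sub-cluster 8 held 277 of the 429 UMIs, and in the AAV-CTRL library 1 nucleus of sub-cluster 1 held 100 of the 180. Without these the ratio was 0.90 (0.50 to 1.31), below the 2-fold threshold. In oligodendrocyte nuclei Pmch stood at 49.4 and 105 CPM, a log2 ratio of 1.08. Its summed level in the GABAergic nuclei was thus close to that of oligodendrocyte nuclei.

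The other highest named genes had 44 to 52 UMIs in the AAV-VEGF-C library. They were Ascl4 (18 and 44 UMIs), Zfp729a (19 and 45), Pml (19 and 45) and Alyref (22 and 52), with log2 ratios from 1.21 for Alyref to 1.26 for Ascl4. Pml (4.78 and 11.1 CPM) and Alyref (5.54 and 12.8) lay below oligodendrocyte nuclei in both libraries, where they stood at 12.9 and 12.7 and at 14.7 and 17.3. Zfp729a did so with AAV-CTRL, at 4.78 against 11.7. Among the first 3, AC155255.1 gave 19 and 47 UMIs and Gm45609 gave 15 and 37. Hbb-bs, a β-globin gene, was also at least 2-fold higher, with 348 and 741 UMIs, and it stood at 334 and 453 CPM in oligodendrocyte nuclei. Sub-cluster 6, which it led, held 37 of the 348 and 297 of the 741 UMIs, and outside it the levels were 80.5 and 112 CPM.

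The lowest ratios included genes of sub-cluster 10, genes carried by single nuclei, genes also lower in oligodendrocyte nuclei, and genes of none of these kinds. Scgb1c1, a secretoglobin gene, gave 76 UMIs with AAV-CTRL and 2 with AAV-VEGF-C, a log2 ratio of −5.28 (−8.35 to −3.37). In oligodendrocyte nuclei it stood at 88.9 and 2.12 CPM. The AAV-CTRL UMIs lay in 67 nuclei with at most 4 each. Col1a1, a fibrillar collagen gene of fibroblasts, gave 78 and 11 UMIs, of which 1 AAV-CTRL nucleus held 36, and its ratio was −2.85 (−3.91 to −1.94). Col1a2 gave 59 and 17 UMIs, of which 1 AAV-CTRL nucleus held 21. In oligodendrocyte nuclei the log2 ratios of Col1a1 and Col1a2 were −1.13 and −0.95.

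Cpa6, a secreted carboxypeptidase gene (chromosome 1, 10324720 to 10719945, minus strand), gave 350 and 54 UMIs and a log2 ratio of −2.72 (−3.17 to −2.31). Of its AAV-CTRL UMIs, 66.3% lay in sub-cluster 10, and without that sub-cluster the ratio was −1.45 (−1.97 to −0.95). Lgr6, an R-spondin receptor gene, gave 50 and 17 UMIs and a ratio of −1.58, which turned to 1.68 (0.18 to 3.47) without sub-cluster 10. Dnah11, an axonemal dynein gene, moved from −2.26 to −1.14 when the sub-cluster was left out. Tshz1, a zinc finger factor, gave 235 and 116 UMIs, a ratio of −1.05 (−1.38 to −0.72), and stood at −0.48 (−0.85 to −0.12) without it. In oligodendrocyte nuclei the ratios were −1.27 for Cpa6, −1.06 for Lgr6 and −0.87 for Dnah11. Meis2 went from −0.65 (−0.75 to −0.55) to −0.32 (−0.42 to −0.21) in the same way. Without sub-cluster 10, 27 genes were at least 2-fold lower and 32 higher.

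Car8, a carbonic anhydrase-related gene that binds the IP3 receptor, gave 182 and 61 UMIs and a log2 ratio of −1.60 (−2.05 to −1.18). A single AAV-CTRL nucleus of sub-cluster 5 held 62 of its UMIs, and without the top nuclei the ratio was −1.10 (−1.58 to −0.63). Itpr1, the IP3 receptor gene, was 860 CPM with AAV-CTRL and 164 with AAV-VEGF-C in that sub-cluster. Car8 and Itpr1 are both known from cerebellar Purkinje cells. Fam107b (44 and 16 UMIs), Mob3b (96 and 39) and Lix1 (95 and 39) completed the 10 lowest. Mob3b and Lix1 had at most 5 and 4 UMIs in 1 AAV-CTRL nucleus. Without sub-cluster 10 their log2 ratios were −1.31 and −1.05, and in oligodendrocyte nuclei they were −0.07 and 0.18.

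**Figure D4:**
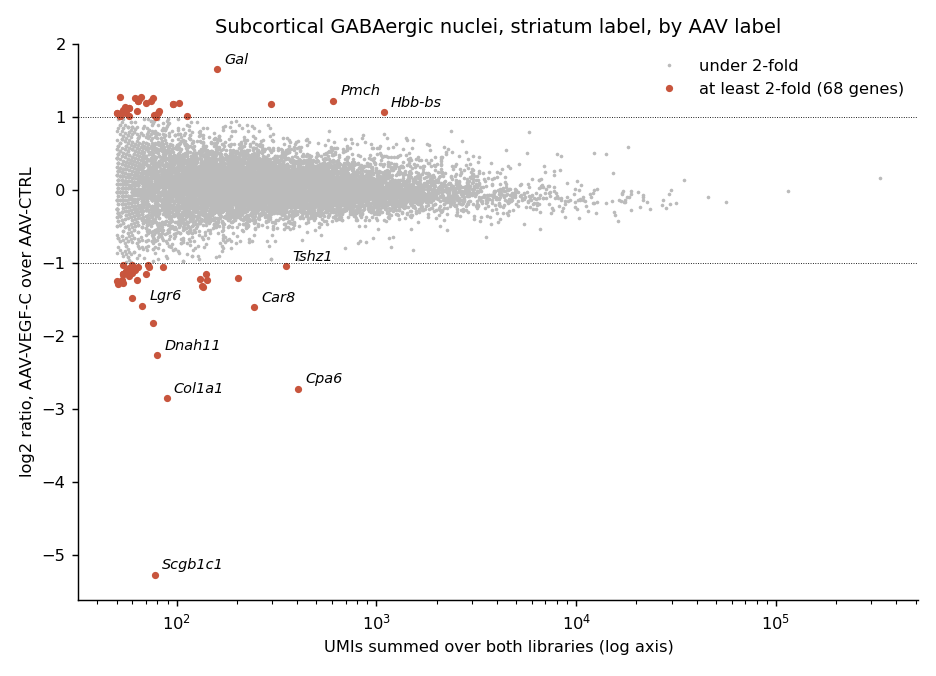
Log2 ratio of AAV-VEGF-C over AAV-CTRL for 11738 genes in the subcortical GABAergic nuclei of the libraries labelled striatum, against UMIs summed over both libraries on a log axis. The 68 genes at least 2-fold apart (red, beyond the dotted lines) are mostly at low UMI counts. Gal has the highest ratio, and Scgb1c1, Col1a1 and Cpa6 have the lowest. Pmch and Cpa6 lie at higher UMI counts than most of the red genes.

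Few genes of the fixed lists passed 2-fold, and their count is read against the shares of 0.281% and 0.298% over all genes. Of 37 neuropeptide genes, 21 had at least 50 UMIs, 2 of them (Gal and Pmch) were at least 2-fold higher, none was 2-fold lower, and the median log2 ratio was 0.50 against 0.03 over all genes. The summed level of the list was 956 and 1320 CPM in these nuclei, and it was also higher with AAV-VEGF-C in oligodendrocyte nuclei (927 and 1058), Slc17a6 nuclei (870 and 1073) and all kept nuclei (1052 and 1281). Sst stood at 0.71 (0.53 to 0.88), Scg2 (secretogranin 2) at 0.50 (0.37 to 0.62), Cartpt at 0.80 (0.40 to 1.21) and Avp at 0.95 (0.52 to 1.40). Avp lay below its oligodendrocyte level. The share of sub-cluster 3 was also higher in the AAV-VEGF-C library, and its part in these ratios was not tested. Of 35 telencephalic factors, 29 had enough UMIs and only Tshz1 passed 2-fold, with a list median of −0.11. No gene passed 2-fold among the 7 diencephalic factors with enough UMIs, the 7 midbrain and hindbrain factors, the 19 GABA and glycine receptor genes, the 23 glutamate receptor genes, the 31 potassium and HCN channel genes or the 22 sodium and calcium channel genes. The medians of these lists lay between −0.18 and −0.02.

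Of 51 receptors for neuromodulators and hormones, 37 had enough UMIs and 1, the α2A adrenergic receptor gene Adra2a (20 and 43 UMIs), passed 2-fold. Adra2a stood at 5.04 and 10.6 CPM, below the 7.99 and 10.8 of oligodendrocyte nuclei. None passed among the 5 VEGF ligand and receptor genes, the 7 neurotrophic genes or the 13 immediate early genes with enough UMIs, whose medians were −0.12, −0.02 and −0.03. Nrp1 stood at −0.12 (−0.31 to 0.07), Nrp2 at 0.22 (0.03 to 0.41), Ntrk2 at −0.08 (−0.16 to 0.01) and Bdnf at −0.43 (−0.96 to 0.09). Of the 3 gate genes, Gad1 stood at −0.28 (−0.39 to −0.17), which is no finding because the rule picked nuclei by these counts. The 7 genes of GABA synthesis, packaging and uptake, which include gate genes, had a median of −0.03, which is likewise a description.

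How these nuclei differ from GABAergic nuclei of the other region label was asked by applying the same gate to the cortex-labelled libraries. Each pair had the same AAV label, and the 2 pairs share no library. The gate did not act alike under both labels. Its condition of 0 UMIs of Slc17a6 plus Slc17a7 took the cortex-labelled nuclei from 512 to 215 and from 778 to 330. It took the striatum-labelled nuclei from 1460 to 1010 and from 1449 to 959. The condition on Rgs9, Ppp1r1b and Drd1 then left 149 and 202 against 925 and 862 nuclei. The part of free RNA in these steps and in the ratios was not tested. Of 9935 genes with at least 50 UMIs in each pair, 43 were at least 4-fold higher with the striatum label in both pairs (0.433%) and 43 at least 4-fold lower (0.433%). The median log2 ratio over all genes was 0.12 in the AAV-CTRL pair and 0.09 in the AAV-VEGF-C pair. Where a cortex-labelled library had 0 UMIs, 3 UMIs per library were set in its place and the ratio is a lower bound. Of the 43 higher genes, 30 were also above the oligodendrocyte level in both striatum-labelled libraries and 13 were not.

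Genes were ranked by the smaller of their 2 log2 ratios. Otx2os1 was the highest with the striatum label, and non-coding RNAs and peptide genes made up most of the 12 highest genes. The factors Zfhx3, Gata3, Otx2 and Lhx1 ranked below these 12. Otx2os1 (chromosome 14, 48668708 to 48870683, plus strand), a non-coding RNA beside Otx2, gave 4 and 1 UMIs in the cortex-labelled and 400 and 448 in the striatum-labelled libraries. Its log2 ratios were 4.12 (2.75 to 6.00) and 6.72 (4.24 to 12.03). Zfhx3 stood at 63.8 and 123 CPM with the cortex label and 815 and 850 with the striatum label, with ratios of 3.67 (3.25 to 4.14) and 2.79 (2.53 to 3.07). Gata3 had 0 UMIs in both cortex-labelled libraries and 117 and 100 in the striatum-labelled ones, which are log2 ratios of at least 2.76 and 2.97. Lhx1 likewise had 0 UMIs in both and 101 and 126, at least 2.55 and 3.31. Otx2 gave 1 and 0 UMIs against 91 and 82. Genes such as Gata3 and Lhx1 entered the comparison through the striatum-labelled libraries alone, so no count over the diencephalic or midbrain lists is read. Of 26 telencephalic factors, Zfhx3 and Zic1 were at least 4-fold higher and 3 (Lhx6, Maf and Dlx6os1) at least 4-fold lower. Zic1 had only 3 and 11 UMIs with the cortex label, so no count over this list is read either. Summed over all GABAergic nuclei Zic1, at 56.9 and 64.2 CPM, lay below the 104 and 113 of oligodendrocyte nuclei, while it was highest in sub-cluster 7.

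The other leading higher genes were Lncenc1, Lncbate1 and Lhx1os, all non-coding RNAs, Prkcd, a protein kinase C gene, Lef1, and Rmst, a non-coding RNA of neural progenitors and midbrain. Rmst stood at 15.95 and 43.0 CPM in the cortex-labelled libraries and 348 and 330 in the striatum-labelled ones. Lncbate1 gave 1 and 3 UMIs against 97 and 127, and Lhx1os gave 2 and 0 against 134 and 127. The glycine receptor gene Glra1 gave 3 and 6 UMIs against 197 and 180. Several of the highest genes were lower in these nuclei than in oligodendrocyte nuclei of both libraries. These were Tcf7l2, Oxt, Avp, Lef1 and Prkcd, and Prkcd stood at 32.5 and 36.1 CPM against 89.7 and 87.2. These levels are sums over all GABAergic nuclei. Within them Lef1 stood at 187 CPM in sub-cluster 4 and 20.7 in the other sub-clusters.

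**Figure D5:**
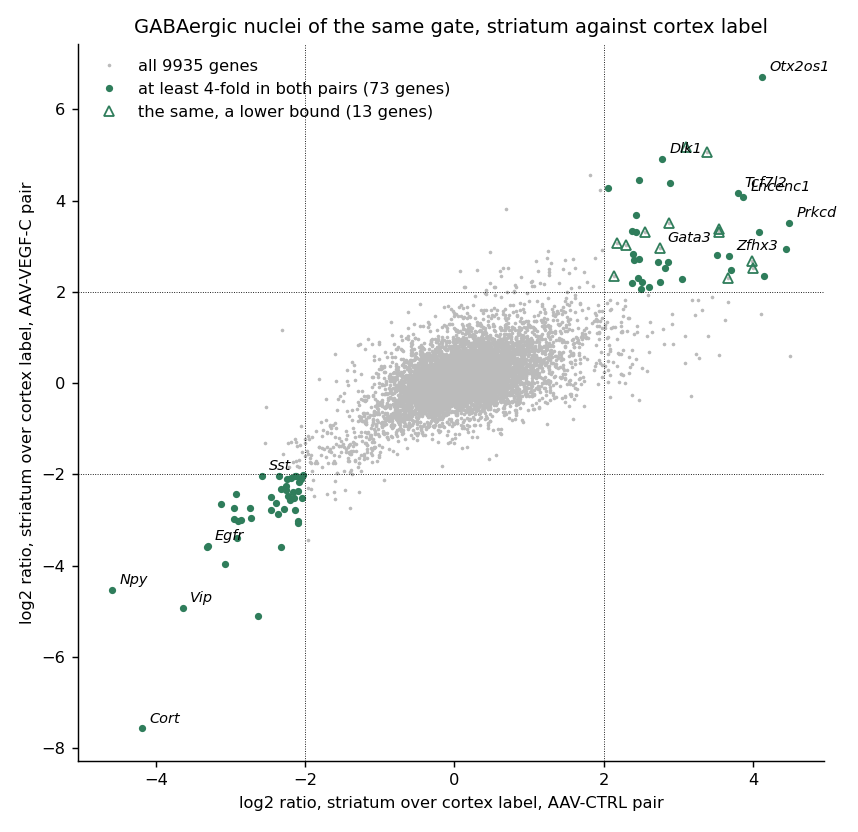
Log2 ratio of the striatum over the cortex label in GABAergic nuclei of the same gate for 9935 genes, with the AAV-CTRL pair on the x axis and the AAV-VEGF-C pair on the y axis. Genes at least 4-fold apart in both pairs are green, with open triangles for ratios that include a library at 0 UMIs, and the dotted lines mark 4-fold.

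Genes lower with the striatum label included peptides and factors known from cortical interneurons. Npy (chromosome 6, 49822710 to 49829507, plus strand), the neuropeptide Y gene, stood at 519 (467 to 576) and 721 (668 to 777) CPM with the cortex label and 21.7 (17.3 to 26.7) and 31.4 (26.2 to 37.3) with the striatum label. Its log2 ratios were −4.58 (−4.94 to −4.24) and −4.52 (−4.81 to −4.25). Cort, the cortistatin gene, gave 41 and 89 UMIs against 13 and 2, and Vip gave 69 and 143 against 32 and 20. Sst stood at −2.58 (−2.77 to −2.38) and −2.03 (−2.19 to −1.88) and Lhx6 at −2.08 (−2.73 to −1.42) and −2.16 (−2.83 to −1.49). Of 19 neuropeptide genes with enough UMIs, 5 were at least 4-fold lower and 3 higher, beside 0.433% of all genes in each direction. The 3 higher genes, Pmch, Avp and Oxt, had 0 or 1 UMIs in each cortex-labelled library. They entered the comparison through the striatum-labelled libraries alone, so no count over this list is read. None of the 3 was clearly above the oligodendrocyte level.

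Iqgap2, Egfr, Eya4, Cemip, Nrgn, Myo1e, Igsf11 and Crhbp were the other named genes among the 12 lowest. Egfr stood at 132 and 108 CPM with the cortex label and 13.3 and 9.14 with the striatum label. Iqgap2 stood at 196 and 170 against 19.6 and 14.1. Nrgn, the neurogranin gene of cortical excitatory neurons, stood at 506 and 557 with the cortex label and 67.0 and 53.1 with the striatum label. In cortex-labelled oligodendrocyte nuclei it stood at 1169 and 1281, above its level in the GABAergic nuclei. Of other genes at least 4-fold lower, Myo1e stood at 71.0 and 64.0 with the cortex label against 94.4 and 91.3 in those oligodendrocyte nuclei. Cck stood at 261 and 328 against 407 and 445, and Chrm1 at 58.0 and 59.8 against 78.2 and 91.8. Egfr and Iqgap2 lay above that level. The 43 lower genes were not counted against it, and the part of free RNA in them was not tested. The ion channel and glutamate receptor lists held no gene past 4-fold, among 31 potassium and HCN channel, 22 sodium and calcium channel and 23 glutamate receptor genes. Of 29 neuromodulator and hormone receptor genes, 4 were at least 4-fold lower with the striatum label, against 0.433% of all genes tested. The serotonin receptor gene Htr1b was at least 4-fold higher, with 2 and 1 UMIs with the cortex label against 62 and 55. It entered the comparison through the striatum-labelled libraries alone, so it is not read as a count. Its level in these was 15.6 and 13.6 CPM, against 10.4 and 8.13 in oligodendrocyte nuclei. The lower ones included Adra1a, at 264 and 251 CPM against 60.4 and 60.8, and the cannabinoid receptor gene Cnr1, at 258 and 306 against 58.7 and 74.6.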

How the data were processed

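Nuclei from pooled brains were captured with 10x Genomics 3′ v3 chemistry and sequenced on an Illumina HiSeq. The authors made UMI counts per gene and nucleus with Cell Ranger (5.0.1 per the file headers, 5.1.1 per the submitters' processing notes) on mm10, discarded nuclei with fewer than 200 UMIs, took out clusters of debris, dead cells and doublets, and deposited the raw counts of 31053 genes. The 78728 deposited nuclei are as many as the study kept after these steps, so doublets were called here on a set already cleaned of such clusters. Their normalization, integration and clusters are not in these counts, and no removal of free RNA is stated.

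From the deposited counts, doublets were called per library with Scrublet (scanpy 1.11.5, expected rate 8%) and left out. The rule was applied to raw UMIs. Members were clustered with Leiden (leidenalg 0.10.2; 2000 variable genes without the gate genes, 30 components, 15 neighbours, resolution 1.0). Summed UMIs per library gave levels in CPM. No test was run: the virus contrast within a region label has a single library on each side, and an additive fit over all 4 libraries, which would leave 1 residual degree of freedom, was left out. Intervals are exact (Poisson for levels, Clopper-Pearson for shares, conditional binomial for ratios, scipy 1.17.1) at 95% and cover counting error only. Genes needed at least 50 UMIs per contrast. Called means at least 2-fold by virus, or at least 4-fold in both pairs by region label. The ratio calculation was tested on simulated data.

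Genes named were the gate genes, the highest or most variable genes of 22 fixed lists, the 5 leading genes of each sub-cluster, the 10 highest and 10 lowest called genes by virus, and the 12 highest and 12 lowest by region label. Unnamed gene models were named only in the first 3, and a few genes that the rule would name are not reported here. The members and lists were chosen with earlier results of these data known. Further genes (Hbb-bs, Tshz1, Itpr1, Glra1, Adra1a, Cnr1, Chrm1, Cck, Sst and Lhx6 in the contrasts) were picked after their values were seen. Coordinates come from GENCODE vM21 (GRCm38), the reading-strand setting is not given in the sources used here, and overlapping or antisense genes such as Otx2os1 and Lhx1os may share reads with neighbours.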

Additional observations from a re-analysis of the deposited data

Results flagged for a closer look

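Pla2g6 and Il13ra1 had log2 ratios by virus of opposite sign under the 2 region labels, with counting intervals on opposite sides of 0. They were singled out from the 68 genes at least 2-fold apart by virus, of 11738 with enough UMIs. Pla2g6, a phospholipase gene, had a log2 ratio of AAV-VEGF-C over AAV-CTRL of 1.18 with the striatum label (29 and 67 UMIs) and −2.30 with the cortex label (25 and 7 UMIs). Il13ra1, an interleukin receptor subunit gene, had 1.01 with the striatum label (37 and 76 UMIs) and −3.27 with the cortex label (7 and 1 UMIs). The cortex-label UMIs of both genes fell short of the minimum set for a contrast, so their cortex-label direction is not read. The cortex-label interval of Il13ra1 was −8.77 to −0.31. With the striatum label, Pla2g6 stood at 7.30 and 16.6 CPM against 16.2 and 15.9 in oligodendrocyte nuclei. Il13ra1 stood at 9.32 and 18.8 against 8.60 and 9.55. Each ratio is from 1 pair of libraries, and the difference between labels was not tested.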

How the results depend on the processing

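The share of GABAergic nuclei followed the gate. It was 0.949% and 1.45% (AAV-CTRL and AAV-VEGF-C) with at least 5 Gad1 plus Gad2 and 2 Slc32a1 UMIs, 1.70% and 1.68% with excluded marker sums at 0, and 5.98% and 5.87% of nuclei with at least 2000 UMIs. The log2 ratio was 0.61, −0.017 and −0.028 in turn. By virus, 62 genes were higher and 22 lower with the stricter gate, 56 higher with marker sums at 0, 3 and 4 with a minimum of 200 UMIs, and 878 and 1149 with 1 UMI in each library. By region label, 20 were higher and 20 lower with the stricter gate, 26 higher with marker sums at 0, 13 and 17 with 200 UMIs, 133 lower with 1 UMI, and 18 and 20 after thinning to 2000 UMIs, which left out 10 to 52 nuclei per library. Without sub-cluster 10, an alternative chosen after seeing the data, as was leaving out the 3 sub-clusters of other cell type genes or the top nucleus of a gene, Lgr6 turned to 1.68. Pmch was 0.56 with the stricter gate and 0.49 after thinning, and Car8 was −0.51 and Pml 0.39 after thinning. With the stricter gate AC155255.1 was 0.81, Ascl4 0.53, Alyref 0.21 and Lix1 −0.11, and with marker sums at 0 Gm45609 was 0.71. Beyond the constructions named, the cause was not tested. No paired analysis was possible because the labels give no replicate numbers and each group is 1 library; the region contrast compares libraries of the same AAV label side by side, without a test. Depth limits genes under about 50 UMIs.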
